A study of Mus musculus with 12 samples.

Results

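The RLTR repeats of the ERVK family are long terminal repeats (LTRs) of mouse endogenous retroviruses, together with a few internal regions, and they were followed here through an ORF1p immunoprecipitation from testis. Members were all repeats annotated as ERVK whose name starts with RLTR, without the RLTR10 and RLTRETN names. They comprised 133 of the 1528 repeat subfamilies and 20759 of the 781935 single repeat loci in the files. Of the 133 subfamilies, 128 are LTRs and 5 are internal regions (names ending in -int), and they fall under 31 RLTR numbers. A subfamily held between 5 and 2978 loci, with a median of 66. A further 459 RLTR loci carry the uncertain annotation "ERVK?" and were not counted as members.

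The 12 RNA-seq libraries came from testes of C57BL/6 mice at 3 months of age, all of genotype Mael-/-, so that the groups differ in preparation and not in genotype. TOTAL is the cleared testis extract with 10 mM EDTA, INPUT is the pool of sucrose gradient fractions 5 to 8 of that extract, IP is the RNA recovered from INPUT with an anti-ORF1p antibody, and BO (beads only) is the RNA recovered from INPUT with beads that carried no antibody. Each of the 4 groups had 3 libraries, described as biological replicates. Each p-value of the main fit rests on the spread between libraries within groups, pooled over all 4 groups, with information shared between subfamilies. It is not the spread of the compared groups alone. IP and BO were both taken from INPUT, while the main fit treats the 12 libraries as independent.

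An endogenous retrovirus integrates with an LTR at each end. The LTR carries the promoter and the polyadenylation signal, and the internal region carries the gag and pol genes. Recombination between the LTRs leaves solo LTRs behind, which is why most annotated copies are LTRs without an internal region. ERVK elements of the mouse include the IAP and ETn/MusD groups, some of which still move, and some RLTR elements are known as enhancers in embryonic stem cells and in trophoblast. ORF1p is the RNA-binding protein encoded by the LINE-1 element, and MAEL is a germ cell protein that keeps transposons silent. RNA with an RLTR sequence can come from the element's own promoter or from a longer transcript that contains the element, and reads of this kind do not tell these apart. In the whole testis, fewer cells of a type and less RNA per cell cannot be told apart either.

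Between 1384904 and 7282171 reads per library fell on repeat subfamilies, with 1384904 to 2003193 in IP, 1712212 to 3512997 in BO, 3045169 to 3880641 in INPUT and 6021800 to 7282171 in TOTAL. Of these, between 27220 and 75125 reads per library fell on the RLTR members. The subfamily values are counts that the authors normalized to the upper quartile of each library. RNA of the 7SL type took up to 51.6% of repeat reads in TOTAL and at most 1.63% in IP, and rRNA took 54.3% in BO replicate 3, so that scaling to library totals moves all subfamilies together. On that scaling the median log2 fold change of all subfamilies tested was 1.49 for IP vs TOTAL, against -0.05 on the authors' scaling. Mael was at 0.65 or lower in the mean of every group. The 4 spermatocyte genes Sycp1, Sycp3, Spo11 and Dmc1 were between 154 and 12256 in the means of TOTAL, INPUT and BO and between 1224 and 54865 in IP beside BO. The 4 spermatid genes Acrv1, Tnp1, Prm1 and Prm2 were at 30.1 or lower. The 8 Sertoli and Leydig cell genes were each lower in IP than in INPUT and TOTAL, but beside BO only Sox9 and Wt1 were lower in IP. The part of cell type in the RLTR results was not tested.

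The first question was what part RLTR RNA made up in the libraries of each preparation. The members' normalized counts summed to 43246 ± 1158 in TOTAL, 43685 ± 265 in INPUT, 47919 ± 1390 in BO and 40218.5 ± 211 in IP (SD, n = 3). On this scale IP was the lowest of the 4 groups and BO the highest. By the study's methods the libraries of the groups were made from unlike amounts of RNA. The sums therefore compare the composition of the libraries and not the amount of RLTR RNA in a preparation. As a share of all repeat reads the order was another one, with 0.983%, 0.658% and 0.638% in the TOTAL libraries, 1.54%, 1.51% and 1.48% in INPUT, 2.14%, 2.22% and 1.06% in BO and 1.97%, 2.05% and 2.07% in IP. TOTAL was then the lowest and IP was above INPUT, while BO replicate 3, the library with 54.3% rRNA, lay apart from the other BO libraries. Among all LTR reads the members took 7.78% ± 0.19 in TOTAL, 7.06% ± 0.34 in INPUT, 6.37% ± 0.27 in BO and 7.09% ± 0.65 in IP (SD, n = 3). The share in IP lay within the spread of that in INPUT. Among ERVK reads the share was 16.03% ± 1.42 in TOTAL, 13.1% ± 1.4 in INPUT, 10.4% ± 0.93 in BO and 13.3% ± 2.2 in IP.

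The reads were spread over many subfamilies. The median member stood at a normalized count of 166 in TOTAL, 169 in INPUT, 166 in BO and 157 in IP, and the 6 members with the highest mean held 25.02% of the sum in TOTAL, 25.4% in INPUT, 28.2% in BO and 24.4% in IP. By number, the RLTR13 group of 23 subfamilies was the largest, with 13.1% of the members' sum in TOTAL and 15.5% in IP. RLTR17 followed in IP with 9.68%, RLTR20 with 8.11% and RLTR11 with 7.46%.

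The 6 highest members were RLTR17B_Mm, RLTR42-int, RLTR21, RLTR19-int, RLTR11A and RLTR40. None of them passed the 2-fold threshold for a call in any comparison, though smaller differences were seen. RLTR17B_Mm, with 2978 loci the most numerous member, measured 2081, 2014 and 2116 in TOTAL, 1879.8, 2099 and 2255 in INPUT, 2831, 2806 and 2959 in BO and 2303, 2584 and 2623 in IP. BO lay above all other libraries, and IP lay between BO and INPUT. RLTR42-int, an internal region, measured 1802, 1528 and 1454 in TOTAL, 2087, 2012 and 1964 in INPUT, 2534, 3265 and 2851 in BO and 2164, 1981 and 1681 in IP. Here too BO was highest, while IP overlapped INPUT and TOTAL. RLTR21 measured 3087, 2569 and 2471 in TOTAL, 1874, 1801 and 1759.5 in INPUT, 2049.9, 2256 and 2097 in BO and 1852, 1657 and 1436 in IP. It was highest in TOTAL, in which all 3 libraries stood above the other 9. RLTR19-int measured 1859.8, 1952 and 1862 in TOTAL, 2631, 2442 and 2327 in INPUT, 1953, 2076 and 2024 in BO and 1600.3, 1558 and 1604 in IP. Its IP libraries were below the other 9 and its INPUT libraries above them. RLTR11A measured 1366, 1212 and 1295 in TOTAL, 1498, 1321 and 1434 in INPUT, 1819, 2326 and 2057 in BO and 1088, 1248 and 1194 in IP. RLTR40 measured 1347, 1244 and 1199 in TOTAL, 1389, 1247 and 1253 in INPUT, 1593, 1562 and 1501 in BO and 902, 951 and 1036 in IP. In both, BO was above all other groups, and in RLTR40 IP was also below all of them. In the limma fit described next, RLTR11A had a log2 fold change of -0.81 for IP vs BO (adjusted p = 5.63e-05). RLTR19-int had -0.63 for IP vs INPUT (limma, adjusted p = 3.6e-05) and RLTR21 had -0.72 for IP vs TOTAL (limma, adjusted p = 0.000515). RLTR17B_Mm went the other way, at 0.27 for IP vs INPUT (limma, adjusted p = 0.0228).

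Changes were tested with limma on log2(normalized count + 1) on 1180 subfamilies whose mean over all libraries reached 10, and 127 of these are members. The 6 members below that mean, RLTR12F, RLTR1F_Mm, RLTR46, RLTR46A, RLTR50A and RLTR9A4, were not tested. Calls needed a log2 fold change past 1 in either direction and an adjusted p under 0.05. IP was compared with BO, INPUT and TOTAL, and these comparisons share the same 3 IP libraries. INPUT was also compared with TOTAL, and BO with INPUT.

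**Figure D1:**
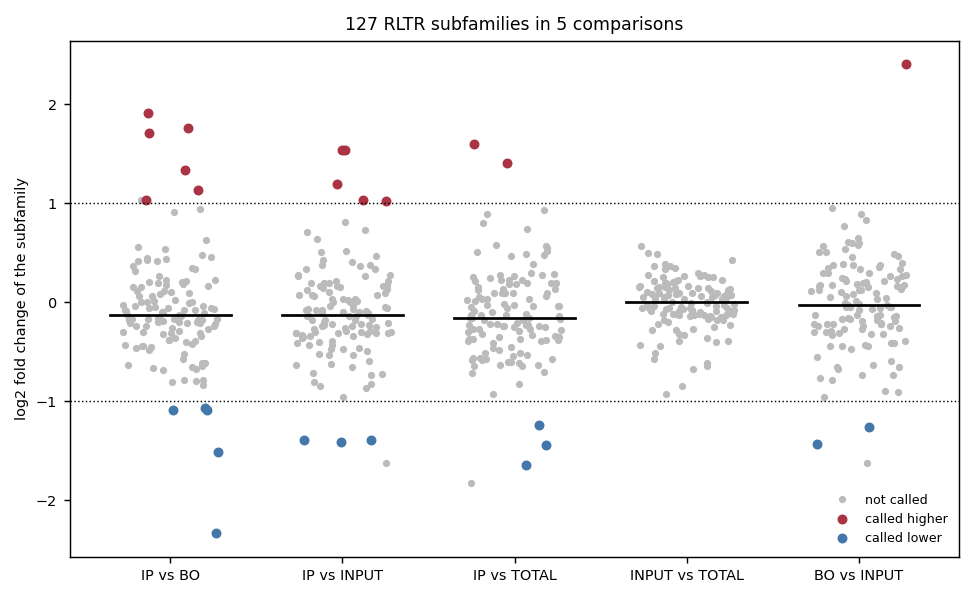
Log2 fold change (vertical axis) of each of the 127 RLTR subfamilies tested, in the 5 comparisons; red points were called higher, blue points called lower, grey points not called, the thick lines are medians and the dotted lines mark 1 and -1. The medians lie between -0.16 and 0.00, and the called members are few in each comparison.

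Compared with BO, 6 members were called higher in IP and 5 lower. This is 4.72% and 3.94% of the 127 tested, beside a percentage of 5.08 called higher and 3.81 called lower among all 1180 subfamilies, so that the members' share is near the background. The median log2 fold change was -0.13 over the members and -0.12 over all subfamilies tested. With an adjusted p under 0.05 at any size, 12 members were above 0 and 34 below (11.3% and 23.2% of all subfamilies). On median ratio scaling, which moves the median of all subfamilies from -0.12 to 0.00, the split became 9 higher and 2 lower.

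Compared with INPUT, 5 members were called higher in IP and 3 lower, beside a background of 3.22% and 2.88%. The median was -0.13 over the members and -0.06 over all subfamilies. At any size, 11 members were above 0 and 21 below with an adjusted p under 0.05, beside 11% and 16.7% of all subfamilies. Compared with TOTAL, 2 members were called higher and 3 lower, beside 2.88% and 3.47%, with medians of -0.16 and -0.05. At any size, 11 members were above 0 and 23 below with an adjusted p under 0.05. This is 8.66% and 18.1% of the members, beside 10.2% and 12.5% of all subfamilies, a difference that was not tested. Without IP replicate 1, INPUT replicate 1 or INPUT replicate 3 only 3 members were higher against INPUT, and without IP replicate 3, 5 were lower, with RLTR12B2 and RLTR42 added. On library totals the called members became 11 higher and 0 lower against INPUT, and 106 higher and 0 lower against TOTAL, in step with the common shift given above. In all, 16 members were called in at least 1 comparison with IP. Of these, RLTR13B4, RLTR19A and RLTR46B were called in all 3 comparisons, RLTR3_Mm and RLTR13A in 2 and the other 11 in 1. The same counts were not computed over all subfamilies, and the 3 comparisons share the IP libraries. Whether the members differ from other subfamilies in this can therefore not be read from them.

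Among ERVK subfamilies outside the members, the 10 RLTR10 subfamilies had medians of 0.87 for IP vs BO, 0.76 for IP vs INPUT and 0.53 for IP vs TOTAL, with 4, 2 and 3 called higher and 0 lower. The 49 RMER and BGLII subfamilies tested had medians of -0.07, -0.19 and -0.21, with 0 called higher in each and 3, 2 and 2 called lower. The 81 other ERVK subfamilies tested, which include the IAP and MMERVK10C elements, had medians of 0.07, -0.06 and -0.07, with 12, 4 and 7 called higher and 8, 8 and 5 lower. The members' medians (-0.13, -0.13 and -0.16) thus stand beside those of RMER and BGLII and below those of RLTR10, a difference that was not tested.

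**Figure D2:**
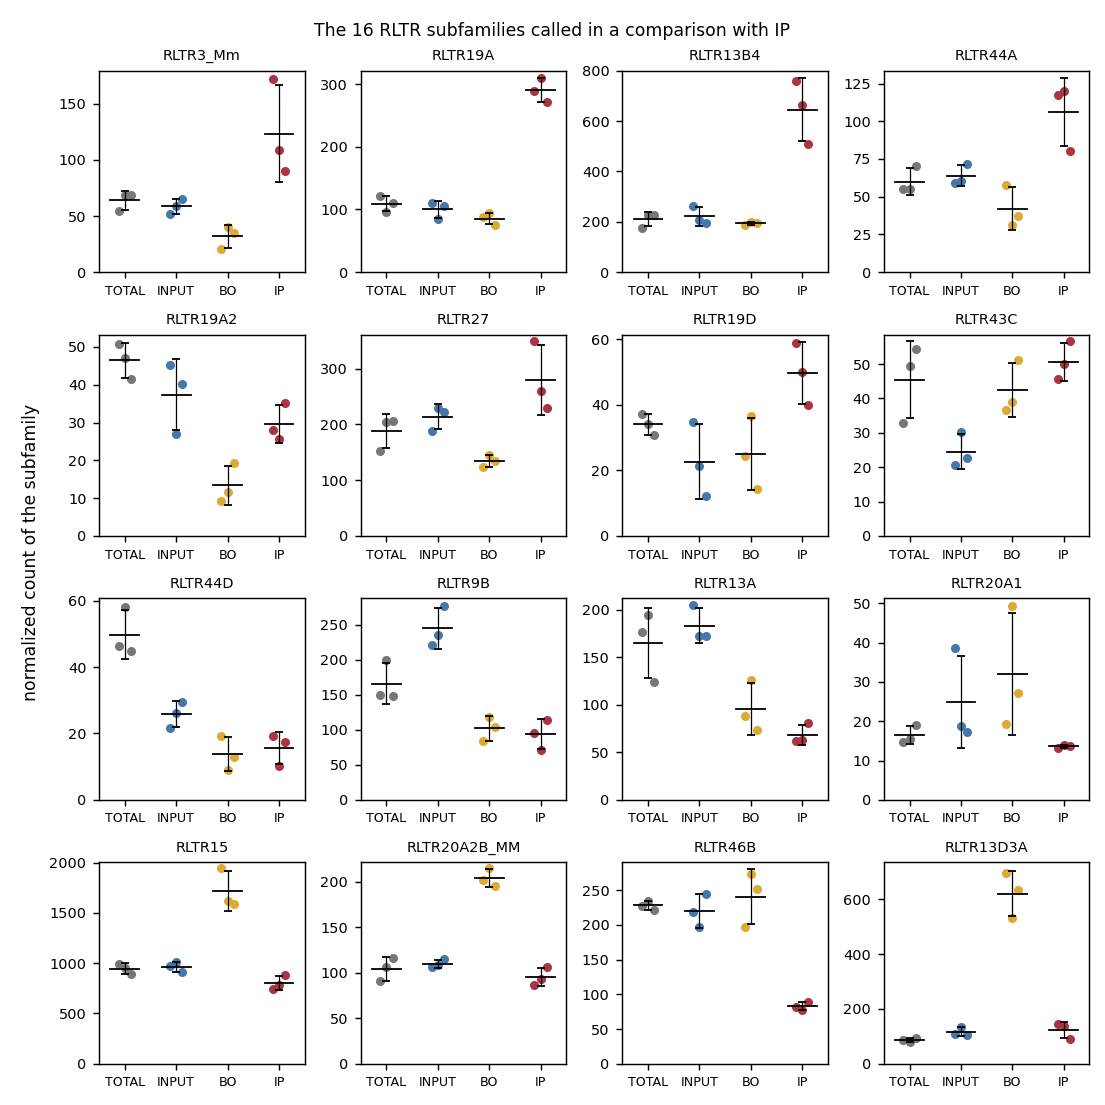
Normalized count (vertical axis, from 0) of the 16 RLTR subfamilies called in a comparison with IP, ordered by log2 fold change of IP vs BO, in TOTAL, INPUT, BO and IP; points are the 3 libraries, the long bar is the mean and the error bar the SD. RLTR19A and RLTR13B4 stand high in IP over all other groups, RLTR46B stands low in IP, and RLTR13D3A, RLTR15 and RLTR20A2B_MM stand high in BO.

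In the subfamily values, RLTR13B4 and RLTR19A were higher in IP than in each of the other groups. For RLTR19A the summed means of its single loci gave log2 ratios of -0.86 against BO, -0.48 against TOTAL and 0.19 against INPUT. RLTR13D3A, RLTR19A2, RLTR3_Mm, RLTR43C and RLTR9B also changed sign over their loci in a called comparison, as given at the end of the Results. RLTR13B4, an LTR subfamily of 60 loci, measured 177, 227 and 229 in TOTAL, 263, 207 and 194 in INPUT, 188, 199 and 194 in BO and 759, 666 and 510.1 in IP. Every IP library stood well above the other 9, which overlap one another. Its log2 fold change was 1.71 against BO, 1.53 against INPUT and 1.60 against TOTAL, with a standard error of 0.16 in each (limma, adjusted p = 8.47e-06, 4.59e-05 and 2.95e-05). RLTR19A, with 34 loci, measured 122, 96.6 and 109.6 in TOTAL, 109.9, 84.9 and 105 in INPUT, 87.3, 93.7 and 75.4 in BO and 289.8, 309.8 and 272 in IP. Again the IP libraries lay apart from all others. INPUT overlapped both TOTAL and BO, while BO lay just below TOTAL. Its log2 fold change was 1.76 against BO, 1.54 against INPUT and 1.41 against TOTAL, with a standard error of 0.14 (limma, adjusted p = 3.28e-06, 2.08e-05 and 2.95e-05).

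RLTR46B, with 20 loci, was lower in IP than in each of the other groups. It measured 228, 235 and 221 in TOTAL, 218, 197 and 245 in INPUT, 197, 273 and 252 in BO and 82.4, 78.1 and 88.8 in IP. TOTAL, INPUT and BO overlapped, and the highest IP library was under the lowest of them. Its log2 fold change was -1.51 against BO, -1.39 against INPUT and -1.45 against TOTAL, with a standard error of 0.13 (limma, adjusted p = 5.61e-06, 2.55e-05 and 1.65e-05). On library totals the value against TOTAL became 0.09. A subfamily close to it in name, RLTR46A2, had a mean of 10.0 and was listed at 0 in 1 BO and 1 IP library. Its log2 fold changes were -0.003 against BO, -1.63 against INPUT and -1.83 against TOTAL, and it was not called. At this depth RLTR46A2 could not be placed.

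RLTR3_Mm, with 5 loci the least numerous member, was called higher in IP against BO and INPUT. It measured 54.5, 69.1 and 69.2 in TOTAL, 51.7, 58.8 and 65.0 in INPUT, 20.6, 40.3 and 35.3 in BO and 172, 109 and 89.7 in IP, on 22 to 117 reads per library. IP was above the other 9 libraries and BO below all of them, and the first IP library was the highest. It differed by a log2 fold change of 1.91 against BO, 1.02 against INPUT and 0.89 against TOTAL, with a standard error of 0.28 (limma, adjusted p = 0.000255, 0.017 and 0.0394). Without the first IP library the value against INPUT was 0.75 and was no longer called, and without the first INPUT library it was 0.93, also not called. In all, the call against INPUT was lost in 3 of its alternative fits and kept in 12.

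RLTR44A, with 46 loci, measured 55.1, 54.9 and 70.2 in TOTAL, 59.2, 60.4 and 71.8 in INPUT, 58.0, 31.2 and 36.9 in BO and 118, 120.3 and 80.0 in IP. The IP libraries were above the other 9, while BO overlapped TOTAL and fell just short of INPUT. RLTR44A had a log2 fold change of 1.34 against BO (SE 0.24, limma, adjusted p = 0.00108), and it was 0.71 against INPUT and 0.80 against TOTAL, under the threshold of 1. RLTR27, with 155 loci, measured 153, 205 and 206 in TOTAL, 188, 230.2 and 223 in INPUT, 123, 146 and 135 in BO and 350.1, 259.9 and 230.2 in IP. BO was below all other libraries, and the lowest IP library was level with the highest of INPUT. RLTR27 had a log2 fold change of 1.03 against BO (SE 0.17, limma, adjusted p = 0.000585). It was 0.86 without the first IP library and 0.97 without the first BO library, and was then not called. In all, this call was lost in 3 of its alternative fits and kept in 13.

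For some members called against BO, the BO libraries set the difference apart. RLTR19A2, with 20 loci, measured 50.7, 47.2 and 41.5 in TOTAL, 45.1, 26.9 and 40.1 in INPUT, 9.35, 11.7 and 19.2 in BO and 27.9, 25.6 and 35.1 in IP. BO stood below all others, and IP overlapped INPUT and lay below TOTAL. RLTR19A2 had a log2 fold change of 1.13 against BO (SE 0.29, limma, adjusted p = 0.00937) and -0.31 against INPUT (adjusted p = 0.474), while BO was lower than INPUT by a log2 fold change of -1.44 (adjusted p = 0.00312). Without the first BO library the value against BO was 0.92 and not called. In all, the call against BO was lost in 2 of its alternative fits and kept in 13.

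RLTR13D3A, with 34 loci, showed the reverse. It measured 86.6, 77.9 and 94.7 in TOTAL, 109.9, 136 and 104 in INPUT, 696, 532 and 635 in BO and 144, 137 and 90.7 in IP. The 3 BO libraries were far above the other 9, and IP overlapped INPUT and TOTAL. The log2 fold change was -2.34 for IP vs BO, 0.07 for IP vs INPUT and 2.40 for BO vs INPUT, with a standard error of 0.18 (limma, adjusted p = 2.43e-06, 0.823 and 3.53e-06).

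RLTR15, with 421 loci, measured 994, 952 and 887 in TOTAL, 970.5, 1007 and 908 in INPUT, 1942, 1614 and 1592 in BO and 743, 786 and 883 in IP. RLTR20A2B_MM, with 76 loci, measured 90.3, 106 and 116 in TOTAL, 106, 109 and 115 in INPUT, 202, 215 and 196 in BO and 86.8, 93.5 and 106 in IP. In both, BO stood above the other 9 libraries, and for RLTR15 the IP libraries also lay below the other 9. RLTR15 differed by -1.09 between IP and BO (SE 0.10, limma, adjusted p = 5.61e-06) and by -0.26 between IP and INPUT (adjusted p = 0.0601). RLTR20A2B_MM differed by -1.09 (SE 0.13, adjusted p = 4.56e-05) and by -0.20 (adjusted p = 0.258). Neither was called on median ratio scaling, where the values against BO were -0.97 for both, on totals without 7SL RNA and rRNA (-0.93 for both) or on library totals (-0.60 for both), and RLTR15 was at -0.999 and not called without the first BO library.

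RLTR20A1, with 12 loci, measured 14.8, 15.4 and 19.1 in TOTAL, 38.5, 18.8 and 17.4 in INPUT, 19.3, 49.4 and 27.3 in BO and 13.2, 14.1 and 13.7 in IP, on 9 to 41 reads per library. IP was below all other libraries by a narrow margin, and BO was widely spread. IP and BO differed by a log2 fold change of -1.07 (SE 0.37, limma, adjusted p = 0.0433). This call was lost in 13 of its 15 alternatives, among them every other scaling, edgeR (-1.18), the fit of the 2 groups alone and the fit without BO replicate 2 (-0.71).

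The remaining members were called for IP against INPUT or TOTAL but not against BO. RLTR9B, with 37 loci, measured 149, 199.8 and 149 in TOTAL, 222, 236 and 277 in INPUT, 83.5, 118 and 104 in BO and 95.6, 71.7 and 114 in IP. INPUT stood above the other 9 libraries, and BO and IP overlapped. RLTR9B had a log2 fold change of -1.39 for IP vs INPUT and -1.26 for BO vs INPUT, with a standard error of 0.19 (limma, adjusted p = 0.000299 and 0.000637), and -0.13 for IP vs BO (adjusted p = 0.64). RLTR13A, with 26 loci, measured 177, 194 and 124 in TOTAL, 205, 173 and 172 in INPUT, 87.9, 126 and 73.8 in BO and 61.8, 62.7 and 81.0 in IP. IP overlapped BO and lay below INPUT and TOTAL. RLTR13A had a log2 fold change of -1.41 for IP vs INPUT and -1.24 for IP vs TOTAL, with a standard error of 0.22 (limma, adjusted p = 0.000625 and 0.00164), and -0.46 for IP vs BO (adjusted p = 0.125). On library totals the value against TOTAL was 0.29.

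RLTR44D, with 29 loci, measured 46.4, 58.2 and 44.7 in TOTAL, 21.6, 26.1 and 29.5 in INPUT, 19.3, 9.11 and 12.8 in BO and 19.1, 10.2 and 17.6 in IP, on 7 to 75 reads per library. TOTAL was above the other 9 libraries, INPUT came next, and BO and IP overlapped at the bottom. The log2 fold change for IP vs TOTAL was -1.64 (SE 0.32, limma, adjusted p = 0.00333), and the INPUT vs TOTAL value was -0.93 (adjusted p = 0.152). RLTR43C, with 39 loci, measured 32.8, 49.4 and 54.2 in TOTAL, 20.7, 30.2 and 22.7 in INPUT, 36.8, 39.0 and 51.3 in BO and 45.6, 49.9 and 56.6 in IP. INPUT was below the other 9 libraries, and TOTAL, BO and IP overlapped. The log2 fold change for IP vs INPUT was 1.03 (SE 0.24, limma, adjusted p = 0.00736). It was 0.95 without the third IP library, 0.92 without the first INPUT library and 0.99 without the third INPUT library, and was then not called. In all, this call was lost in 4 of its alternative fits and kept in 11.

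RLTR19D, with 21 loci, measured 37.1, 34.0 and 30.9 in TOTAL, 34.8, 21.2 and 12.1 in INPUT, 24.3, 36.4 and 14.4 in BO and 58.8, 49.9 and 40.0 in IP, on 9 to 60 reads per library. IP was above the other 9 libraries, with INPUT and BO widely spread. The log2 fold change was 1.20 against INPUT (SE 0.38, limma, adjusted p = 0.0352) and 1.03 against BO (adjusted p = 0.0548). The call against INPUT was lost in 5 of its alternative fits and kept in 10. Among those that lost it were the fits without IP replicate 1 (1.07), IP replicate 2 (1.18), INPUT replicate 2 (1.21) or INPUT replicate 3 (0.83). Against BO, RLTR19D was called without BO replicate 2 (1.34) and with a replicate block (limma, adjusted p = 0.0199).

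Counted over all tested members, the 3 IP libraries stood above the other 9 for 7 members (7.29% of all subfamilies do so, and 5.51% of the members) and below them for 16 (8.81% of all subfamilies, 12.6% of the members). The 16 were RLTR12B, RLTR12BD_Mm, RLTR12C, RLTR13D3A1, RLTR15, RLTR17D_Mm, RLTR18-int, RLTR18B, RLTR19-int, RLTR19C, RLTR20A1, RLTR20A2, RLTR25A, RLTR31B2, RLTR40 and RLTR46B. The 7 were RLTR13B4, RLTR19A, RLTR3_Mm, RLTR44A and RLTR19D, with RLTR13D1 and RLTR13D3, which were below the fold threshold. RLTR13D3 measured 531, 479 and 416 in IP and between 234 and 376 elsewhere. It differed by 0.73 against INPUT and 0.74 against TOTAL on the log2 scale. RLTR13D1 measured 132, 138 and 136 in IP and between 53.3 and 108 elsewhere. The 3 BO libraries stood above the other 9 for 17 members, 13.4% of them beside 13.6% of all subfamilies. Of these 17, 6 belong to RLTR20 (RLTR20A2B_MM, RLTR20A4, RLTR20B2, RLTR20B3, RLTR20B3A_MM and RLTR20B5_MM). BO stood below the other 9 for 4 members, RLTR19A2, RLTR27, RLTR3_Mm and RLTR49, beside 5.08% of all subfamilies. INPUT stood above the others for 4 members (RLTR19-int, RLTR19C, RLTR33 and RLTR9B, background 4.66%) and below them for 2 (RLTR31M and RLTR43C, background 2.46%). TOTAL stood above the others for 7 (RLTR18, RLTR18B, RLTR21, RLTR26, RLTR34C_MM, RLTR44D and RLTR9A, background 3.47%) and below them for 2 (RLTR13C1 and RLTR45-int, background 1.53%).

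Members that share a number in the name were then set side by side. The 23 RLTR13 subfamilies had a median log2 fold change of -0.09 for IP vs BO, or between 0.03 and 0.40 on the other scalings of library size, and spanned -2.34 (RLTR13D3A) to 1.71 (RLTR13B4), with 1 called in each direction. RLTR13B4's nearest namesakes RLTR13B1, RLTR13B2 and RLTR13B3 stood at -0.45, -0.17 and -0.08, and RLTR13D3A's namesakes RLTR13D3 and RLTR13D3A1 at 0.56 and -0.26. The 7 RLTR19 subfamilies had a median of 0.16 for IP vs BO (0.65 on library totals), with RLTR19A and RLTR19A2 called higher, and -0.31 for IP vs INPUT (0.22 on library totals), with RLTR19A and RLTR19D called higher and RLTR19, RLTR19-int and RLTR19C at -0.47, -0.63 and -0.87.

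The 16 RLTR20 subfamilies had a median of -0.47 for IP vs BO with 2 called lower, and -0.18 for IP vs INPUT with none called. On library totals these medians were 0.03 and 0.36. The 8 RLTR31 subfamilies likewise had -0.47 for IP vs BO, 0.03 on library totals, with none called. The 6 RLTR44 subfamilies lay between 0.00 and 1.34 for IP vs BO, with a median of 0.41 and between 0.39 and 0.89 under the other scalings and edgeR, with RLTR44A called. The 12 RLTR9 subfamilies had a median of 0.06 for IP vs BO (0.18 on median ratio scaling and 0.55 on library totals), and RLTR9B was called lower for IP vs INPUT. The 5 internal regions, which hold the protein-coding part of the element, had medians of -0.32 for IP vs BO, -0.07 for IP vs INPUT and 0.28 for IP vs TOTAL, against -0.12, -0.13 and -0.16 for the 122 LTRs tested, and none of the 5 was called.

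**Figure D3:**
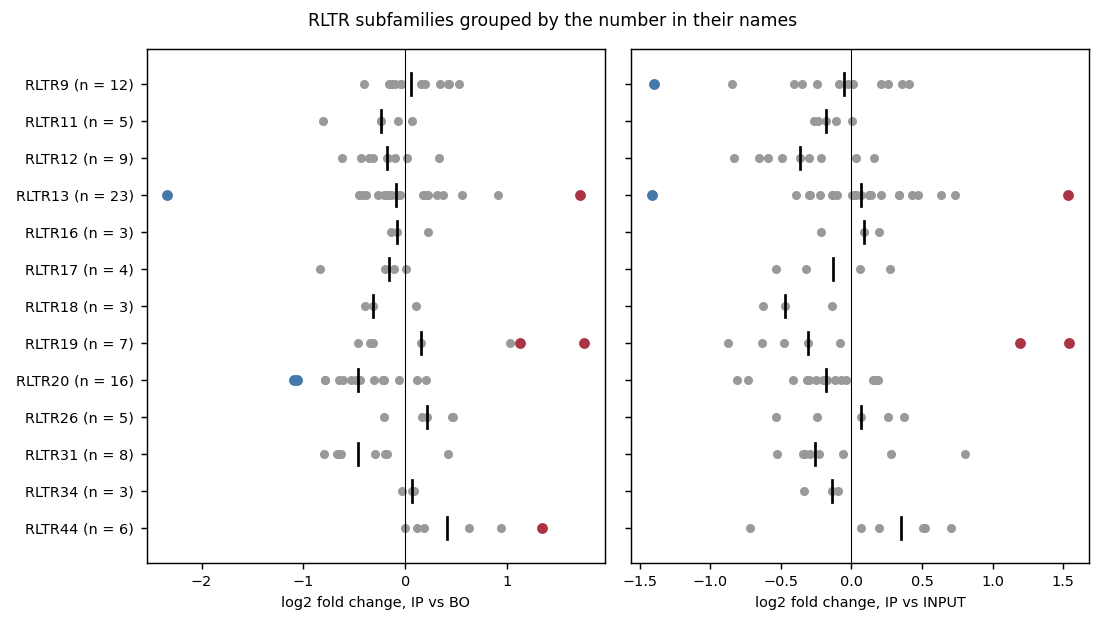
Log2 fold change (horizontal axes) of single RLTR subfamilies for IP vs BO (left) and IP vs INPUT (right), in rows by the number in the name, for the numbers with at least 3 subfamilies tested (n beside each name); red and blue points were called higher and lower, and the black ticks are medians. RLTR13 holds the widest range, from -2.34 to 1.71 for IP vs BO, and RLTR20 has a median of -0.47, which is 0.03 on library totals.

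INPUT was compared with TOTAL to see what fractionation alone did. In limma 0 members were called in either direction, beside a background of 0 and 0.339%. At an unadjusted p under 0.05, 15 members differed at any size (17% of all subfamilies) and 0 past the fold threshold (1.36%), and edgeR on the recovered reads also called 0. The median log2 fold change over the members was 0.00. On library totals that median was 0.997 and 63 members were called higher, with a median of 1.03 over all subfamilies. RLTR19-int was higher in INPUT by 0.38 (limma, adjusted p = 0.0108) and RLTR21 lower, at -0.57 (adjusted p = 0.0167), the 2 members with an adjusted p under 0.05 (0.847% of all subfamilies in each direction). Without TOTAL replicate 1, RLTR43C was called lower at -1.07.

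BO was compared with INPUT to see how the composition of the RNA on the beads alone differed from it. The amount of RNA retained is not measured by these values. In that comparison 1 member was called higher (RLTR13D3A, background 2.63%) and 2 lower (RLTR19A2 and RLTR9B, background 2.8%). At any size, 20 members were above 0 and 12 below with an adjusted p under 0.05, beside 17.2% and 11.7% of all subfamilies. Without BO replicate 2, 4 members were lower, with RLTR13A and RLTR3_Mm added, and without BO replicate 3 or INPUT replicate 3, 2 were higher, with RLTR31_Mur added.

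The second kind of data gives each single locus by the authors' mean over the 3 libraries of a group. It holds no value per library, so no spread could be given and no test was run here. The authors' own fold changes and p-values per locus were not used. Of the 20759 member loci, 39.8% were listed at 0 in both groups of the IP and BO table, 34.9% in that of IP and INPUT and 35.8% in that of IP and TOTAL. Only 162, 183 and 172 loci had a mean of at least 10 over both groups. These few loci held 32.5% of the members' summed IP means in the IP and BO table and 36.9% of the summed BO means. The tables were normalized separately, so a locus is compared within a table.

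Of the 162 loci in the IP and BO table, 16 were more than 2-fold higher in IP and 86 more than 2-fold lower (9.88% and 53.1%), beside 17.2% and 47.7% of all 5557 repeat loci at that level. The median log2 ratio was -1.12 over the member loci and -0.90 over all repeat loci, so that most repeat loci lay lower in IP on this normalization. Against INPUT, 25 of 183 were higher and 60 lower, beside 22.1% and 31.2%, and against TOTAL 28 of 172 were higher and 40 lower, beside 24.1% and 24.3%. With the group means scaled to equal sums over repeat loci, 20 of 128 member loci were higher and 46 lower against BO (28.7% and 32% of all repeat loci at that level), 26 and 38 of 159 against INPUT (28.9% and 22.5%), and 45 and 11 of 124 against TOTAL (48.7% and 9.92%).

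**Figure D4:**
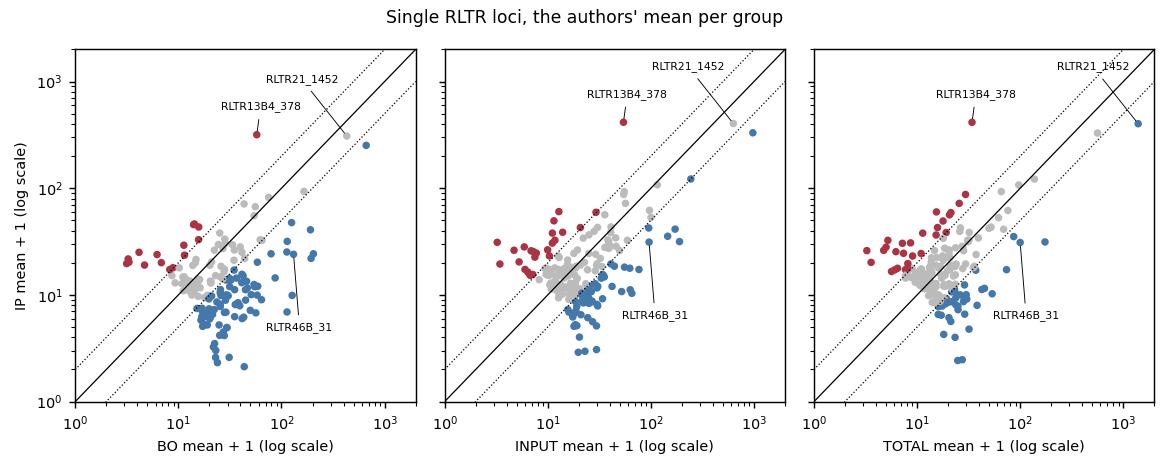
Mean of IP (vertical axis, plus 1, log scale) against the mean of BO, INPUT or TOTAL (horizontal axes, plus 1, log scale) for each RLTR locus with a mean of at least 10 over both groups; the solid line marks equal means and the dotted lines 2-fold, with red points above and blue points below. RLTR13B4_378 stands above the line in each panel, RLTR46B_31 below it, and RLTR21_1452 is farthest to the right in TOTAL.

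RLTR13B4_378 had the highest IP mean of all member loci, 316 against 56.5 in BO, a 5.51-fold ratio. In the other tables its IP mean was 414 against 53.2 in INPUT (7.66-fold) and 413 against 33.1 in TOTAL (12.2-fold). Among the 60 RLTR13B4 loci it held 82.8% of the IP sum beside BO, and without it the log2 ratio of the remaining loci was -0.08 for IP and BO, 0.15 for IP and INPUT and 0.14 for IP and TOTAL. In these tables the higher IP level of RLTR13B4 therefore lay mostly in 1 locus. Another, RLTR13B4_8, had 30.1 in IP and 2.24 in INPUT (9.61-fold) but 22.9 and 5.21 beside BO (3.85-fold).

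RLTR46B showed the same concentration in the other direction. RLTR46B_31 measured 129.9 in BO and 23.0 in IP, 95.1 in INPUT and 30.2 in IP, and 98.8 in TOTAL and 29.99 in IP. It held 75.5% of the subfamily's IP sum and 82.5% of its BO sum. Without it the remaining loci still had log2 ratios of -1.76, -1.81 and -1.38, on sums of 27.6 in BO and 7.46 in IP.

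RLTR21_1452 measured 1390.5 in TOTAL and 401 in IP, and held 86.5% of the TOTAL sum of RLTR21. The log2 ratio of RLTR21 for IP and TOTAL was -1.42 with it and -0.14 without it. It measured 429 in BO beside 307 in IP, and 629 in INPUT beside 403 in IP. RLTR44D_86 measured 26.4 in TOTAL and 1.47 in IP (11.1-fold lower in IP), and held 69.2% of the TOTAL sum of RLTR44D, whose log2 ratio was -1.95 with it and -0.56 without it. RLTR13A_43 measured 64.4 in INPUT and 9.35 in IP (6.32-fold lower), and held 60.3% of the INPUT sum of RLTR13A, whose remaining loci had a log2 ratio of -1.39. RLTR27_1133 held 44.8% of the IP sum of RLTR27, with 42.3 in IP and 14.7 in BO, and without it the log2 ratio was 0.03. Across the 127 tested members the locus with the highest IP mean held a median of 21.2% of the IP sum, and it held over 50% for 8 members.

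Other loci with a high IP mean were RLTR19-int_916 (251 in IP, 662 in BO), RLTR19-int_914 (92.3 in IP, 164 in BO) and RLTR13D3A1_154 (81.2 in IP, 74.0 in BO). Besides RLTR13B4_378, the loci most above BO were RLTR13E_275 (20.7 in IP, 2.26 in BO, 6.67-fold), RLTR12E_538 (18.7 and 2.15, 6.24-fold), RLTR13C1_178 (19.3 and 2.32, 6.10-fold) and RLTR18-int_256 (24.1 and 3.16, 6.03-fold). These low loci come from LTRs and internal regions whose subfamilies were not called. The loci most below BO were RLTR19-int_1724 (1.12 in IP, 42.5 in BO, 20.5-fold), RLTR13D3A1_79 (5.92 and 112, 16.4-fold), RLTR21_1152 (8.90 and 126, 12.8-fold), RLTR40_1366 (1.60 and 30.1, 11.98-fold) and RLTR11A_1201 (1.32 and 22.9, 10.3-fold). Against INPUT the same loci were 2.75-fold, 2.10-fold, 1.84-fold, 9.66-fold and 4.25-fold lower in IP.

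Against INPUT, the loci most above were RLTR13B4_8, RLTR13B4_378, RLTR13D5_676 (18.5 in IP, 2.44 in INPUT, 5.67-fold), RLTR13C1_178 (5.57-fold) and RLTR13E_275 (4.76-fold). The loci most below were RLTR40_1366 (2.07 in IP, 28.7 in INPUT, 9.66-fold), RLTR19C_102 (7.74-fold), RLTR31C_MM_29 (6.82-fold), RLTR13A_43 and RLTR13B1_196 (30.6 in IP, 189 in INPUT, 6.00-fold). Against TOTAL, RLTR13B4_378 was followed by RLTR45-int_1223 (24.995 in IP, 2.25 in TOTAL, 7.99-fold), RLTR18-int_256 (6.24-fold), RLTR12E_219 (5.64-fold) and RLTR13E_275 (5.61-fold). Apart from RLTR13B4_378, the loci named as most above BO, INPUT or TOTAL had a mean under 5 there and reached the mean of 10 through IP. In the same way the loci named as most below, apart from RLTR13B1_196, had an IP mean under 10 and reached it through the other group. The loci most below TOTAL were RLTR44D_86, RLTR26_Mus_472 (1.43 in IP, 23.8 in TOTAL, 10.2-fold), RLTR9D_31 (6.67-fold), RLTR13D3_97 (5.83-fold) and RLTR13B1_196 (5.54-fold).

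The subfamily values and the summed locus means did not give the same level for every member. The 2 kinds of value were normalized in different ways, and whether the locus tables rest on the same reassigned reads as the subfamily values is not given in the sources used here. Over the 127 tested members, the summed locus means amounted to a median of 25.4% of the subfamily value in IP (quartiles 18.5% and 32.1%) and 36.6% in BO (quartiles 25.8% and 50.7%). RLTR3_Mm had the lowest share in IP, with locus means that summed to 0.323 beside a subfamily value of 124 (0.261%). RLTR19A had the second lowest, 13.0 beside 291 (4.47%), while in BO it stood at 24.4 beside 85.4 (28.5%). RLTR13D3A had the lowest share in BO, 16.01 beside 621 (2.58%), and 21.1 beside 124 in IP (17.0%).

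For these members the direction depended on which value was read. RLTR19A had a log2 fold change of 1.76 for IP vs BO at the subfamily level and a log2 ratio of -0.86 over its summed loci. Against INPUT, its summed loci were at 0.19 and against TOTAL at -0.48. RLTR3_Mm had 1.91 and -1.93 for IP vs BO, on locus sums of 4.03 in BO and 0.323 in IP. RLTR13D3A had -2.34 and 0.38. Over the 127 members the log2 ratio of the summed loci minus that of the subfamily had a median of -0.52 for IP and BO. RLTR13B4 had the highest share in IP, 382 beside 645 (59.2%), with 1.71 and 1.59, and RLTR46B had -1.51 and -2.33. Of the 11 members called for IP vs BO, RLTR15 (-0.46 over its loci), RLTR20A1 (-2.10) and RLTR20A2B_MM (-0.83) had the same sign in both kinds of value. So did RLTR27 (0.51), RLTR44A (0.58), RLTR13B4 and RLTR46B, while RLTR19A, RLTR3_Mm and RLTR13D3A had opposite signs. With the median shift of -0.52, a negative sign over the loci does not by itself show agreement with a lower call. The value of RLTR15 lay above that shift, and most of that of RLTR20A2B_MM was no larger than it. RLTR19A2, called at 1.13, had summed loci at -0.0057. For IP and INPUT, RLTR3_Mm was called at 1.02 with summed loci at -1.97, RLTR43C at 1.03 with -0.25 and RLTR9B at -1.39 with 0.015.

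**Figure D5:**
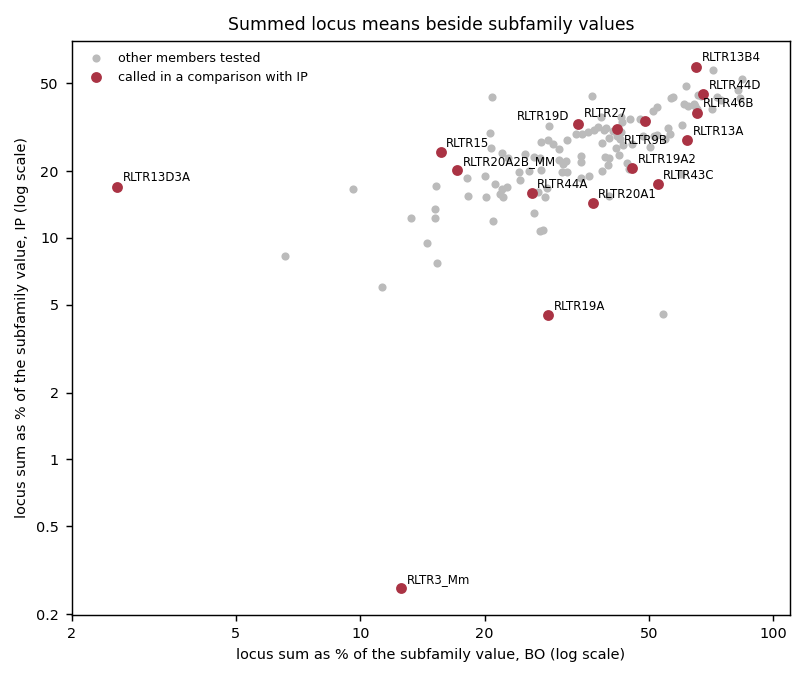
Summed locus means as a percentage of the subfamily value, in BO (horizontal axis, log scale) and in IP (vertical axis, log scale), for the 127 RLTR subfamilies tested; red points are the 16 called in a comparison with IP. RLTR3_Mm (0.261%) and RLTR19A (4.47%) lie low in IP, RLTR13D3A (2.58%) lies low in BO, and RLTR13B4 (59.2%) is highest in IP.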

How the data were processed

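The members and lists were chosen with earlier results of these data known. Per the submitters' processing notes and the study's methods, the authors aligned the reads (STAR 2.6.0c, mm10), reassigned ambiguous reads with Telescope 1.0.3, summed counts per subfamily and normalized them with EBSeq 1.26.0. The deposited signal per subfamily and library is this normalized count. Every value was a whole multiple of 1 read (100% within a tolerance of 0.1), which gave the reads, 1384904 to 7282171 per library. The deposited locus tables hold the authors' mean signal per group after DESeq2 (1.24.0 for genes, the version for loci is not given in the sources used here), and also fold changes and p-values of the authors, which were not used. Locus identifiers carry no coordinates and no sequence is shown.

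Subfamilies with a mean of at least 10 were fitted with limma 3.58.1 (R 4.3.3; lmFit, eBayes with a trend, 1 fit of 4 groups) on log2(value + 1), with Benjamini-Hochberg adjustment over 1180 subfamilies. The steps were tested on simulated data. Locus ratios used a pseudocount of 1. Named subfamilies were those called in a comparison with IP, the 6 with the highest mean and the 3 called members most changed per direction in the other comparisons. Named loci were the 5 with the highest IP mean and the 5 with the largest and smallest ratios per table. Others named were chosen after their values were seen. Alternatives were other pseudocounts, filters and scalings, a fit of 2 groups, edgeR 4.0.16 on the recovered reads, a replicate block and each library left out. Numbers were taken to pair libraries where every same-numbered pair correlated above 0.1 in its deviations from the group means. This held for INPUT and TOTAL (r = 0.63, 0.34 and 0.32 across subfamilies), where the block changed no call, and for no other comparison. The study's methods name no test for repeat subfamilies.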

Additional observations from a re-analysis of the deposited data

How the results depend on the processing

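On library totals, 12 members were called higher and 2 lower for IP vs BO, 11 and 0 for IP vs INPUT, 106 and 0 for IP vs TOTAL and 63 higher for INPUT vs TOTAL. On totals without 7SL RNA and rRNA, an alternative chosen after seeing the data, 2 were lower for IP vs BO and 10 higher and 1 lower for IP vs TOTAL, and on median ratio scaling 2 were lower for IP vs BO. With a mean of at least 100, 3 were higher for IP vs BO, 2 higher for IP vs INPUT and 1 lower for BO vs INPUT. With a pseudocount of 10, 2 were higher for IP vs INPUT. With a library left out, counts higher and lower ranged over 5 to 7 and 4 to 5 for IP vs BO, 3 to 4 and 3 to 5 for IP vs INPUT, 2 to 3 and 3 to 4 for IP vs TOTAL, 0 and 0 to 1 for INPUT vs TOTAL, and 1 to 2 and 2 to 4 for BO vs INPUT. The share of all subfamilies called was not computed for these alternatives. The counts show how the members' calls move, not whether they move differently from other subfamilies.

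For loci past 2-fold against BO, INPUT and TOTAL, a pseudocount of 10 gave 10, 14 and 18 higher and 55, 25 and 22 lower, a mean of at least 50 gave 1, 1 and 2 higher and 11, 7 and 4 lower, and scaling to equal sums gave 46, 38 and 11 lower and 45 higher against TOTAL. Shares over all repeat loci were computed for the equal sums only and are given in the Results. For the other settings the members cannot be set beside all repeat loci.

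Of 711 values of named members under alternatives, 647 kept their direction and side of the threshold, 43 lost a call, 2 gained one and 19 changed sign. On library totals the sign changed for RLTR17B_Mm (0.30), RLTR19-int (0.15) and RLTR21 (0.12) against BO; for RLTR11A (0.28), RLTR21 (0.40), RLTR40 (0.12) and RLTR42-int (0.48) against INPUT; and for RLTR11A (1.41), RLTR13A (0.29), RLTR19-int (1.30), RLTR21 (0.83), RLTR40 (1.16) and RLTR46B (0.091) against TOTAL. On totals without 7SL RNA and rRNA it changed for RLTR11A (0.37), RLTR19-int (0.25) and RLTR40 (0.11) against TOTAL. RLTR42-int against INPUT was 0.015 on median ratio scaling and 0.073 on totals without 7SL RNA and rRNA, and between -0.147 and 0.035 with a library left out, the highest without IP replicate 3. The cause was not tested. With a replicate block, 7 members were called higher and 4 lower for IP vs BO, as RLTR19D was gained (limma, adjusted p = 0.0199) and RLTR20A1 lost (0.06), and the other counts did not move. Same-numbered libraries all correlated above 0.1 for INPUT and TOTAL, while for INPUT and BO r was 0.295, 0.062 and 0.558, and of 18 same-numbered pairs 9 correlated best with their own number. Members with under 10 reads in some library (RLTR19A2, RLTR19D, RLTR20A1, RLTR44D) are limited by depth.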
